A study of Mus musculus with 18 samples.

Results

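The 2 mouse lysozyme genes Lyz1 and Lyz2 were followed in cultured B-cell lymphomas with an inducible histone methyltransferase. They were represented by 4 of the 45101 probe sets on the array: 1436996_x_at, 1439426_x_at and 1450822_at, annotated to Lyz1, and 1423547_at, annotated to Lyz2. All 4 were taken by gene name, and no probe set named both genes. The pair of genes was chosen from measured values, namely the size of their differences after 5 days of treatment against untreated cells, so those differences are described here without p-values.

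Lysozyme is a secreted enzyme that cuts the sugar backbone of bacterial peptidoglycan. Mice carry a duplicated gene. Lyz2 encodes the M form, which macrophages and neutrophils make in large amounts, and its promoter is widely used to direct gene deletion to myeloid cells. Lyz1 encodes the P form, known from the Paneth cells of the small intestine. Neither enzyme is a typical product of B cells, and lysozyme is a standard marker of monocytes and macrophages.

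The cells were primary lymphomas from lymph nodes of Eµ-myc transgenic mice on a C57/Bl6 background, in which an immunoglobulin enhancer drives Myc in B cells. Every group was Suv39h1-null and had been transduced by retrovirus with Suv39h1-ERT2 and with Bcl2. Suv39h1 methylates histone H3 on lysine 9, the ERT2 fusion is active only with 4-OH-tamoxifen (4-OHT), and Bcl2 blocks apoptosis. The groups were ADR+4-OHT 5 d (Adriamycin, a DNA-damaging drug, with 4-OHT for 5 days, n = 3), ADR 5 d (Adriamycin alone for 5 days, n = 3), big outgrowth and small outgrowth (morphologically big or small cells FACS-sorted 14 days after the end of ADR+4-OHT, n = 3 each), ADR outgrowth (14 days after the end of ADR alone, n = 2) and untreated (n = 3). Each group held 1 array from each of lymphomas 4146, 4936 and 5043, stated to be biological replicates, except that the ADR outgrowth of 5043 failed the submitters' quality control and has no values. There was no group with 4-OHT alone, so activation of Suv39h1 was measured only together with Adriamycin. The ADR outgrowth cells were not stated to be sorted by size, so a comparison of either sorted fraction with them also compares sorted with other cells.

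Values are log2 signals on 17 arrays, with 4.86, the median of all values, taken as a floor under which signal may be background. Offsets between the 3 lymphomas are absent from the deposited values, so levels are compared within a lymphoma. The step that took them out shifted values by amounts not known here, so lying under 4.86 is only a rough sign of background. The arrays of ADR 5 d from 4936 and of the big and small outgrowth from 5043 stood apart: their first principal component scores were 67.6 to 100.15, against at most 9.05 on the other 14. On these 3 arrays Xist, the RNA that coats the inactive X chromosome of female cells, lay 5.70 to 5.99 above the median of their own lymphoma, and on ADR+4-OHT 5 d from 4146 it lay at -3.49 relative to that median, so Xist on these 4 arrays goes against the other arrays that carry their lymphoma's label. On the big outgrowth arrays from 4936 and 4146, Xist lay 2.72 and 1.58 above the median of their lymphoma. The lysozyme differences are given with all arrays and without the 3 that stood apart, and those that involve ADR+4-OHT 5 d also without all 4. The big outgrowth arrays from 4936 and 4146 stay in each of these.

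Lyz1 and Lyz2 are neighbours on chromosome 10. In RefSeq on GRCm38.p6, Lyz2 lies at chr10:117277541-117282272 and Lyz1 at chr10:117287795-117292868, both on the minus strand, with 5522 bases and 0 annotated genes between them. The 250 bases before each annotated start, from the same source, are given to show how alike the duplicated promoters are. Their part in the measured values was not tested. Capitals mark the run of 50 bases directly before the start that is identical in the 2 genes. The Lyz1 stretch is chr10:117292869-117293118 and the Lyz2 stretch chr10:117282273-117282522, each written 5′ to 3′ on the minus strand.
Lyz1: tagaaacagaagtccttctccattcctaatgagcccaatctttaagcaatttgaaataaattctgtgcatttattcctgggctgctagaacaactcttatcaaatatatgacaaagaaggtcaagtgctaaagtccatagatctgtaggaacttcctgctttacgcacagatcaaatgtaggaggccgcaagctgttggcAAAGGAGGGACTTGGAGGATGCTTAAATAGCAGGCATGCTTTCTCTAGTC
Lyz2: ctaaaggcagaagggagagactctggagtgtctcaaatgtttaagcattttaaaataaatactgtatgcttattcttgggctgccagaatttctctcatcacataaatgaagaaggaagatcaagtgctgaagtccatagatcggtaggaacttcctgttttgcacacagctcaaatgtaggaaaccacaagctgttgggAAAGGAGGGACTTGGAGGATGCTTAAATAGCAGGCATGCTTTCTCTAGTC

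Aligned over these promoters, 200 of 252 columns (79.4%) held the same base, and 92 of the last 100 bases were identical. 4 motifs were searched by their letters on both strands, with positions counted back from -1 at the base before the start, and none of the matches overlapped another. AGGAAG, the core bound by ETS factors such as PU.1, was found at -99 on the opposite strand in both promoters and at -137 in Lyz2, and 29.5% of 32851 mouse promoters of this length hold it. TTGCNNAA, a form of the C/EBP core, was found only in Lyz1, at -209 on the opposite strand, and is present in 9.56% of promoters. TTAAATA, within the capitals at -28 in both genes, is present in 4.18% of promoters, and the standard TATA box TATAAA, present in 12.4%, was in neither. These matches describe the letters only.

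Lyz2 signal was high after both 5-day treatments, in big outgrowth cells and in ADR outgrowth cells, and low in small outgrowth and untreated cells. In the order 4146, 4936 and 5043, Lyz2 (1423547_at) read 10.17, 12.55 and 7.93 in ADR+4-OHT 5 d, 7.67, 14.49 and 7.85 in ADR 5 d, and 4.75, 5.51 and 2.79 in untreated cells. In the outgrowth populations it read 7.93, 7.23 and 7.50 in big cells, 4.94, 5.84 and 2.26 in small cells, and 7.33 and 7.77 (4146 and 4936) in ADR outgrowth cells. The highest value was ADR 5 d of 4936, one of the arrays that stood apart. Untreated and small outgrowth cells overlapped each other throughout, and no array of theirs reached any array of the other 4 groups.

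The main Lyz1 probe set followed the same order. 1436996_x_at read 11.45, 13.84 and 9.09 in ADR+4-OHT 5 d, 8.52, 15.31 and 8.90 in ADR 5 d, and 4.18, 4.83 and 3.67 in untreated cells. In the outgrowth populations it read 9.33, 8.36 and 8.58 in big cells, 4.25, 5.56 and 3.46 in small cells, and 8.64 and 8.79 in ADR outgrowth cells. All 3 untreated arrays and 2 of 3 small outgrowth arrays lay under 4.86, so the low level itself is not well measured.

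The other Lyz1 probe set above background, 1439426_x_at, read 9.87, 12.33 and 7.61 in ADR+4-OHT 5 d, 7.26, 13.93 and 7.46 in ADR 5 d, and 3.07, 4.29 and 2.11 in untreated cells. It read 7.84, 7.04 and 7.17 in big cells, 3.36, 4.05 and 1.96 in small cells, and 7.07 and 7.29 in ADR outgrowth cells. All 3 small outgrowth and all 3 untreated arrays lay under 4.86. The suffix of these probe sets marks probes that can bind related transcripts, so they may partly read Lyz2 RNA, and the 3 probe sets are not 3 separate signals. With the mean of each lymphoma subtracted, Pearson's r across the 17 arrays, a description over points that share their arrays, was 0.984 and 0.990 between Lyz2 and the Lyz1 probe sets and 0.997 between the 2 Lyz1 probe sets.

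The last Lyz1 probe set, 1450822_at, did not pass the filter on low values and showed no rise of the size seen in the others. It ranged from 2.68 to 3.78 and lay under 4.86 on all 17 arrays, with group means of 3.46 in ADR+4-OHT 5 d, 3.40 in ADR 5 d, 3.29 in big, 2.86 in small and 3.07 in ADR outgrowth cells, and 3.05 in untreated cells. Some of its small differences within 4146, 4936 and 5043 had the signs of the other probe sets. ADR+4-OHT 5 d minus ADR 5 d was 0.50, -0.54 and 0.23, and big minus small was 0.35, 0.19 and 0.75. ADR outgrowth minus untreated, at -0.06 and -0.02 in 4146 and 4936, did not share their sign. Under the floor, whether 1450822_at followed the others cannot be told. This probe set carries no suffix for related transcripts. Lyz1 signal therefore rests on probe sets that may share transcripts with Lyz2, and how much of it comes from Lyz1 was not tested.

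**Figure D1:**
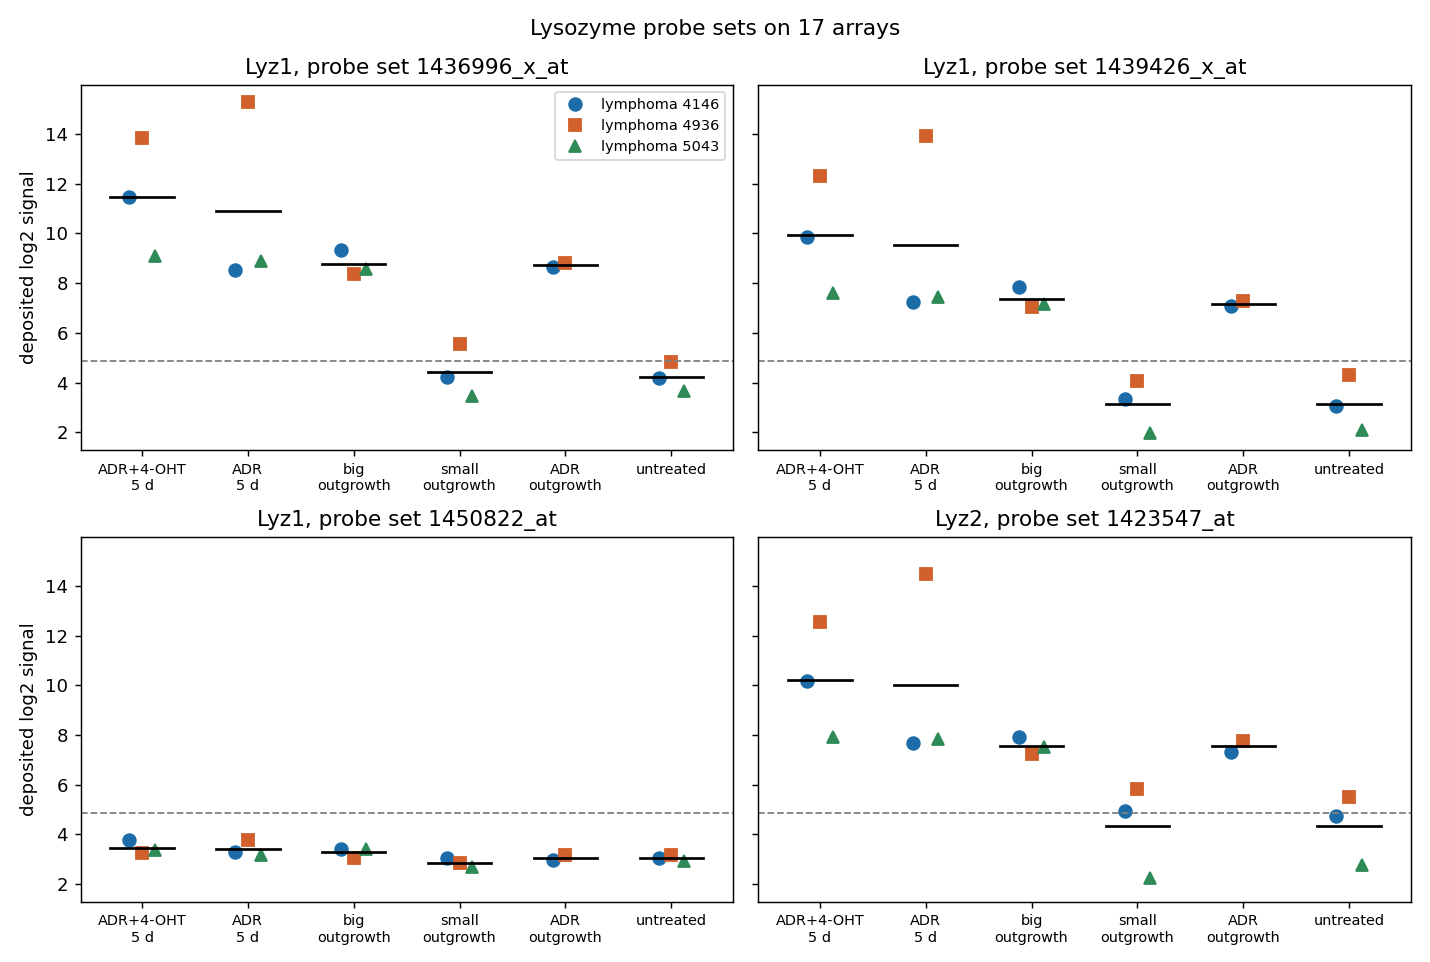
Deposited log2 signal of the 4 lysozyme probe sets (vertical axes) by group, with 1 point per array, shape and colour for the lymphoma, black bars for group means and a dashed line at 4.86, the median of all values. In the 3 probe sets that passed the filter, small outgrowth and untreated arrays sit below all others, and 1450822_at lies under the line on all 17 arrays.

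The order of the group means of 1436996_x_at was ADR+4-OHT 5 d at 11.46 ± 2.38 (SD, n = 3), ADR 5 d at 10.91 ± 3.81 (n = 3), big outgrowth at 8.76 ± 0.51 (n = 3), ADR outgrowth at 8.71 ± 0.11 (n = 2), small outgrowth at 4.42 ± 1.06 (n = 3) and untreated at 4.23 ± 0.58 (n = 3). Neighbours in that order overlapped, with 1 break: the 11 arrays of the first 4 groups spanned 8.36 to 15.31 and the 6 small outgrowth and untreated arrays spanned 3.46 to 5.56. Lyz2 had the same break, with 7.23 to 14.49 on the 11 arrays and 2.26 to 5.84 on the 6. 1439426_x_at spanned 7.04 to 13.93 on the 11 arrays, against 1.96 to 4.29 on the 6. The SDs of the group means are limited by the equal medians of the lymphomas in the deposited values. Arrays near the median of their lymphoma lie close together for that reason. For 1436996_x_at, big outgrowth of 5043 lay at that median and the ADR outgrowth arrays 0.06 and 0.21 above it. Small SDs therefore do not measure the spread between lymphomas.

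This split of the groups was drawn after the values were seen and is a description. Of the 24622 probe sets that passed the filter, 27 (0.11%) kept the same 11 arrays above the same 6 without overlap, and 17 kept them below. The gap between the sets was 2.81 and 2.75 for the Lyz1 probe sets and 1.39 for Lyz2, and no other probe set had a gap over 1. The next largest belonged to Cd36, a scavenger receptor that takes up fatty acids, at 0.71, to F9, a clotting factor, at 0.44 and to Mmp13, a collagenase, at 0.37. Cd14, the monocyte co-receptor for bacterial lipopolysaccharide, ranked 9 by gap, at 0.26. Cd14 reached the floor on 6 arrays only, so its gap lay under the floor, where signal may be background.

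After 5 days the lysozyme probe sets were among those with the largest differences from untreated cells of all 24622, and both Lyz1 probe sets came first. For 1436996_x_at, ADR+4-OHT 5 d minus untreated was 7.23 (SE 1.17, n = 3 each) and ADR 5 d minus untreated was 6.68 (SE 1.17), and 1439426_x_at gave 6.78 (SE 1.13) and 6.39 (SE 1.13). For Lyz2 the differences were 5.87 (SE 1.15) and 5.66 (SE 1.15), which ranked 4 and 3 by size. Because the low values lay near or under background, the same differences with every value under 4.86 set to it were 6.61 and 6.06, 5.08 and 4.69, and 5.14 and 4.93. Without the ADR 5 d array of 4936 and the other 2 arrays that stood apart, ADR 5 d minus untreated was 4.97 for 1436996_x_at, 4.75 for 1439426_x_at and 4.01 for Lyz2, while ADR+4-OHT 5 d minus untreated was as with all arrays. Without the ADR+4-OHT array of 4146 as well, ADR+4-OHT 5 d minus untreated was 7.31, 6.94 and 6.06.

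In these comparisons 3 of 3 probe sets that passed the filter had no overlap with untreated cells, beside 14.6% of all tested probe sets that lay higher without overlap in ADR+4-OHT 5 d and 11.9% in ADR 5 d. Nothing is read from that, since these contrasts chose the genes. The size of the difference varied between lymphomas. Within 4146, 4936 and 5043, 1436996_x_at differed from untreated by 7.27, 9.01 and 5.42 after ADR+4-OHT and by 4.34, 10.48 and 5.23 after ADR.

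The question of the 5-day arms is what activation of Suv39h1 adds to Adriamycin. For lysozyme, the lymphomas disagreed: ADR+4-OHT 5 d minus ADR 5 d was 2.93 in 4146, -1.47 in 4936 and 0.19 in 5043 for 1436996_x_at, and 2.51, -1.94 and 0.08 for Lyz2. The mean differences were 0.55 (SE 1.17), 0.39 (SE 1.13, 1439426_x_at) and 0.21 (SE 1.15, Lyz2), each smaller than its error. The p-values of the fit are not used for it, since these arrays took part in choosing the genes. The negative value comes from the ADR array of 4936 that stood apart, and the largest positive value from the ADR+4-OHT array of 4146 whose Xist level went against its label. Without the 3 arrays that stood apart the fitted differences were 2.27 (SE 0.85), 2.03 (SE 0.78) and 1.86 (SE 0.73). Without all 4 they were 2.34 (SE 1.01), 2.19 (SE 0.91) and 2.05 (SE 0.85). Only lymphoma 5043 then kept both of its 5-day arrays, and its own differences were 0.19, 0.15 and 0.08. The fitted values without all 4 therefore rest largely on setting arrays of different lymphomas against each other. Without lymphoma 4146 the sign turned, with -0.64 (SE 1.52), -0.72 (SE 1.45) and -0.93 (SE 1.44), so the direction of this difference rests on which arrays are kept.

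**Figure D2:**
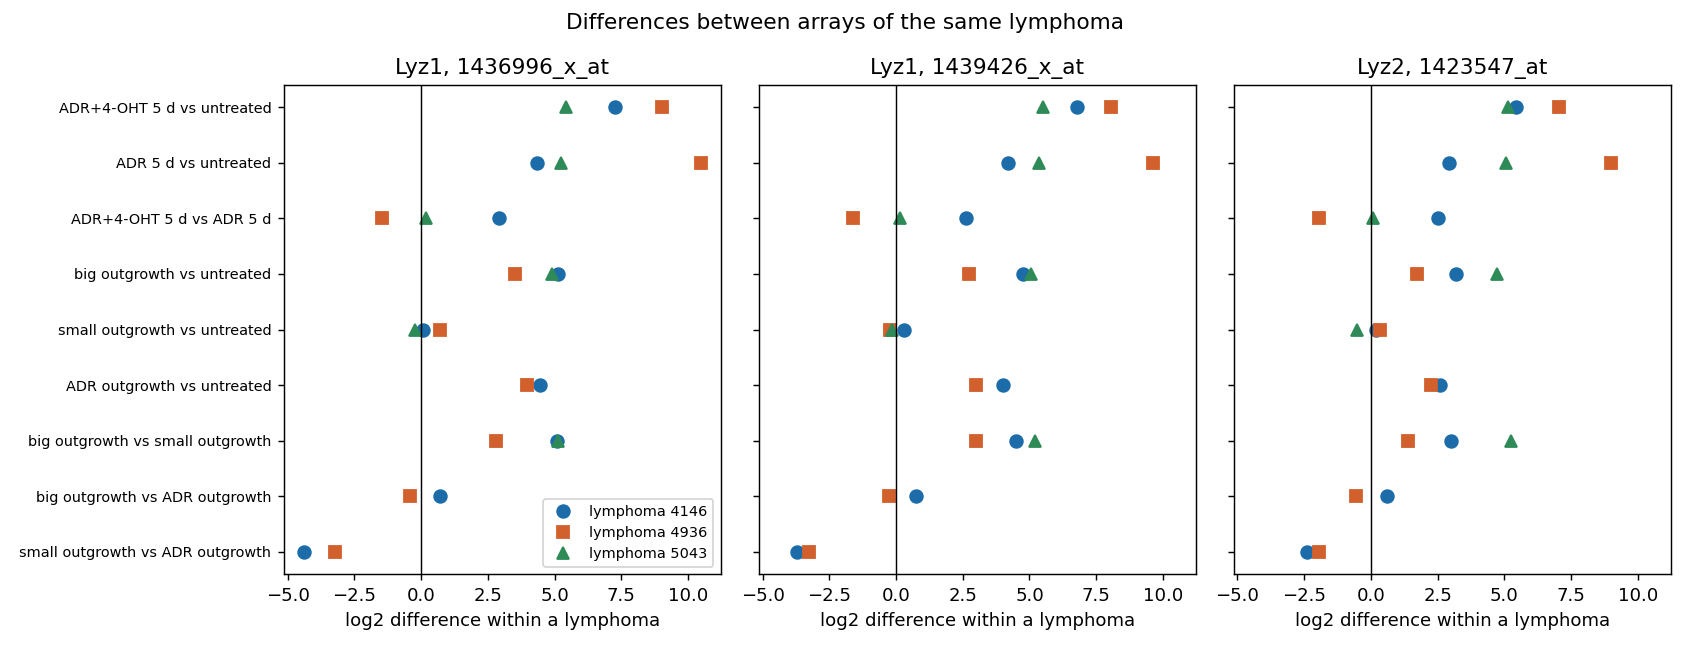
Log2 difference between 2 arrays of the same lymphoma (horizontal axes) for 9 comparisons and the 3 lysozyme probe sets that passed the filter, with 1 point per lymphoma and a line at 0. ADR+4-OHT 5 d against ADR 5 d falls on both sides of 0 and small outgrowth against untreated lies near 0, while big outgrowth lies above small outgrowth in all 3 lymphomas.

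At 14 days, big outgrowth cells read higher than small outgrowth cells in all 3 lymphomas and all 3 probe sets, but the difference did not pass the test. The difference within 4146, 4936 and 5043 was 5.08, 2.81 and 5.12 for 1436996_x_at, 4.48, 2.99 and 5.21 for 1439426_x_at and 2.99, 1.39 and 5.24 for Lyz2. The means were 4.34 (SE 1.17), 4.23 (SE 1.13) and 3.21 (SE 1.15), and 3 of 3 probe sets showed no overlap, beside 8.38% of all tested probe sets that lay higher in big cells without overlap. None passed limma's test over all probe sets, with adjusted p = 0.145, 0.140 and 0.274 and unadjusted p = 0.00323, 0.00293 and 0.0168 by the same fit. In that test 68 of 24622 probe sets (0.276%) were called. Its standard errors take in the spread of all groups, the 5-day arrays included. In a fit to only the big and small outgrowth arrays the standard errors were 0.48, 0.42 and 0.69. Limma's adjusted p was then 0.131, 0.131 and 0.143, so the difference did not pass there either. Without the 3 arrays that stood apart, which leaves 2 arrays a group, the differences were 3.94, 3.73 and 2.19 with adjusted p = 0.198, 0.189 and 0.360.

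Small outgrowth cells also read lower than ADR outgrowth cells. The difference was -4.39 in 4146 and -3.24 in 4936 for 1436996_x_at and -2.39 and -1.93 for Lyz2. The fitted differences were -3.69 (SE 1.34), -3.38 (SE 1.29, 1439426_x_at) and -2.39 (SE 1.31, Lyz2), with n = 3 against 2, and limma's adjusted p was 0.338, 0.347 and 0.486. The groups of 3 of 3 probe sets did not overlap, as in 16.6% of all tested probe sets that lay lower in small cells. No probe set on the array passed that test (0%), while 3003 had an unadjusted p under 0.05. With the 3 arrays that stood apart left out, the differences were -3.81, -3.48 and -2.16 (adjusted p = 0.272, 0.272 and 0.313).

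Big outgrowth cells and ADR outgrowth cells overlapped in all 3 probe sets. Within 4146 and 4936 the difference was 0.69 and -0.43 for 1436996_x_at and 0.60 and -0.54 for Lyz2. The fitted differences were 0.65 (SE 1.34), 0.85 (SE 1.29, 1439426_x_at) and 0.81 (SE 1.31, Lyz2), with limma's adjusted p of 0.811, 0.740 and 0.755, beside 529 probe sets (2.15%) that passed. Leaving out the 3 arrays that stood apart gave 0.13, 0.25 and 0.03, with adjusted p = 0.952, 0.892 and 0.989. A fit to only the arrays of the compared groups also gave 0.13, 0.25 and 0.03. With such errors a miss of the threshold does not show that the groups were alike.

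Relative to untreated cells, small outgrowth cells had differences of 0.19 (SE 1.17) for 1436996_x_at, -0.03 (SE 1.13) for 1439426_x_at and -0.00 (SE 1.15) for Lyz2. Big outgrowth cells had 4.53 (SE 1.17), 4.19 (SE 1.13) and 3.21 (SE 1.15), and ADR outgrowth cells had 3.88 (SE 1.34), 3.35 (SE 1.29) and 2.39 (SE 1.31). Both lay above untreated cells without overlap in 3 of 3 probe sets, as did 11.5% of all tested probe sets for big cells and 11.8% for ADR outgrowth cells. When the 3 arrays that stood apart were left out, the differences were 4.08, 3.64 and 2.51 for big cells, 0.14, -0.09 and 0.31 for small cells and 3.95, 3.39 and 2.48 for ADR outgrowth cells. Against ADR+4-OHT 5 d, the treatment both sorted fractions had come through, small cells differed by -7.04 (SE 1.17) for 1436996_x_at and -5.87 (SE 1.15) for Lyz2, and big cells by -2.71 (SE 1.17) and -2.66 (SE 1.15). With the 3 arrays left out these were -7.10 and -5.55 for small and -3.15 and -3.36 for big cells. With all 4 left out they were -7.18 and -5.77 for small and -3.24 and -3.58 for big cells. Only lymphoma 4936 then kept both sorted and ADR+4-OHT arrays. Its own differences were -8.29 and -6.71 for small and -5.48 and -5.32 for big cells. Big cells read lower than ADR+4-OHT 5 d in each lymphoma, with differences of -2.13, -5.48 and -0.51 for 1436996_x_at. All of these share the untreated or 5-day arrays that chose the genes, so the p-values of the fit are not used for them. In bulk RNA, fewer cells of a type that makes lysozyme and less lysozyme RNA per cell cannot be told apart.

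The genes whose values ran most like lysozyme across the 17 arrays included several that are known from myeloid cells. Likeness was Pearson's r over 17 arrays with the mean of each lymphoma subtracted, for probe sets with 1 gene symbol, and these points share arrays and treatments. Mir22hg, the host transcript of microRNA 22, came first for all 3 probe sets, with r = 0.941, 0.937 and 0.936, and 0.923, 0.920 and 0.930 on the 14 arrays without those that stood apart. It ranged from 7.52 to 9.47 in ADR+4-OHT 5 d, 6.35 to 9.66 in ADR 5 d, 6.69 to 6.93 in big, 5.62 to 6.55 in small and 6.60 to 7.44 in ADR outgrowth cells, and 5.15 to 5.88 in untreated cells.

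Cd36 followed for both Lyz1 probe sets (r = 0.936 with 1439426_x_at), at 9.38 to 9.78 in ADR+4-OHT 5 d, 8.09 to 11.02 in ADR 5 d, 6.65 to 8.40 in big, 4.26 to 5.29 in small and 7.55 to 8.99 in ADR outgrowth cells, and 4.29 to 5.95 in untreated cells. The other genes among the 5 nearest of 1436996_x_at were the chemokine Ccl9 (0.924), the arginine methyltransferase Prmt2 (0.920) and Ly96, the partner of the lipopolysaccharide receptor Tlr4 (0.919). Those of 1439426_x_at were Fth1, the heavy chain of the iron store ferritin (0.926), Ccl9 (0.925) and Acod1, which makes itaconate in activated macrophages (0.924). Those of Lyz2 were Acod1 (0.929), the neutrophil collagenase Mmp8 (0.924), Csf1r, the receptor for macrophage colony-stimulating factor (0.922), and Mpeg1, a pore-forming protein of phagocytes (0.920). Without the 3 arrays that stood apart, r was between 0.860 and 0.885 for Acod1, Mmp8, Ccl9, Ly96 and Mpeg1 and was 0.919 for Cd36 with 1439426_x_at, 0.914 for Csf1r, 0.911 for Prmt2 and 0.906 for Fth1.

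**Figure D3:**
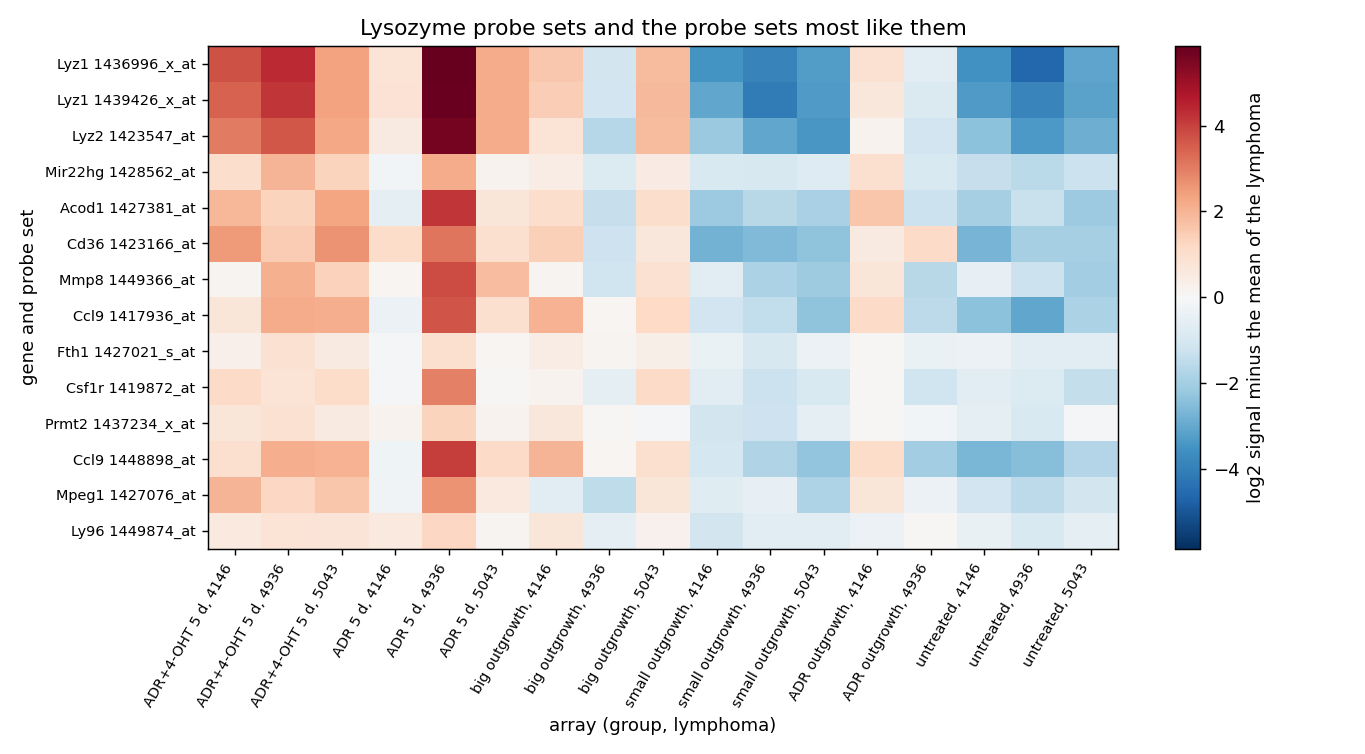
Log2 signal minus the mean of the lymphoma (colour) on 17 arrays (columns, by group and lymphoma) for the 3 lysozyme probe sets that passed the filter and the probe sets most like them (rows). The darkest red is ADR 5 d of 4936, one of the 3 arrays that stood apart, and in the lysozyme rows the darkest blues lie on small outgrowth and untreated arrays.

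The mean level of macrophage markers ran with lysozyme across the arrays. The list held 18 genes, 13 of which passed the filter, and its mean log2 level per array was 6.10 to 6.76 in ADR+4-OHT 5 d, 5.97 to 7.69 in ADR 5 d, 5.88 to 6.49 in big, 5.40 to 5.78 in small and 5.71 to 6.44 in ADR outgrowth cells, and 5.22 to 5.65 in untreated cells. That level correlated with the lysozyme probe sets at r = 0.879 to 0.898 over 17 arrays and at 0.847 to 0.853 without the 3 arrays that stood apart. None of the 13 passed limma's test in the comparisons among outgrowth cells, at adjusted or unadjusted p, and their median was 0.54 for big against small cells, -0.33 for small against ADR outgrowth and 0.26 for big against ADR outgrowth, beside medians of -0.02, -0.02 and -0.03 over all probe sets. Mrc1, Marco, C1qa, C1qb and C1qc, the mannose receptor, a scavenger receptor and the complement C1q chains of tissue macrophages, lay under 4.86 on all 17 arrays. The part of macrophages in the lysozyme signal was not tested.

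Single macrophage markers varied in how closely they followed. Csf1r averaged 7.04 ± 0.24 in ADR+4-OHT 5 d, 7.03 ± 2.13 in ADR 5 d, 6.30 ± 0.51 in big, 5.13 ± 0.24 in small and 5.64 ± 0.39 in ADR outgrowth cells, and 5.07 ± 0.68 in untreated cells (SD, n = 3, and n = 2 for ADR outgrowth). The equal medians of the lymphomas limit these SDs too. Big minus small was 1.17 (SE 0.71) for Csf1r, with limma's adjusted p of 0.548. Cd68, a lysosomal protein of macrophages, was above 4.86 on all 17 arrays, at 7.04 to 10.15. Adgre1, a surface receptor of mouse macrophages, passed 4.86 on 3 arrays only: 9.48 in ADR 5 d of 4936, 6.32 in big outgrowth of 5043, both among the arrays that stood apart, and 5.72 in big outgrowth of 4146.

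Cd14 passed 4.86 on 6 arrays and read highest in ADR 5 d of 4936, at 9.81, followed by big outgrowth of 5043 at 6.63. Itgam, an integrin chain of myeloid cells, read 9.04 in ADR 5 d of 4936 and 8.23 in ADR outgrowth of 4146, but 4.29 in big outgrowth of 4936, where Lyz2 was at 7.23. On these arrays lysozyme and Itgam levels did not run in parallel.

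Granulocyte genes gave a mixed picture. Of 12 genes, 7 passed the filter and 0 passed limma's test among the outgrowth groups, while 1, Lcn2, had an unadjusted p under 0.05 for big against small cells. Mpo, Elane, Ctsg, Ngp and S100a9, proteins of neutrophil granules and cytosol, lay under 4.86 on all 17 arrays. S100a8, the partner of S100a9, passed it on 3 arrays, with 7.38 as its highest value, and Camp, an antimicrobial peptide, stayed between 4.55 and 5.41. Lcn2, an iron-binding protein of neutrophils that other cells also make, reached 11.97 in ADR 5 d and 10.84 in ADR+4-OHT 5 d of 4936, and read 9.40, 7.67 and 9.22 in big cells (4146, 4936, 5043), against 5.03, 4.72 and 5.84 in small cells. The mean level of all 12 genes correlated with lysozyme at r = 0.859 to 0.886 over 17 arrays and at 0.789 to 0.808 without the 3 arrays that stood apart. From 5 to 11 of the 12 lay under 4.86 on an array, and Mmp8, named above among the genes nearest Lyz2, is on the list. Which genes carry this correlation was not tested.

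**Figure D4:**
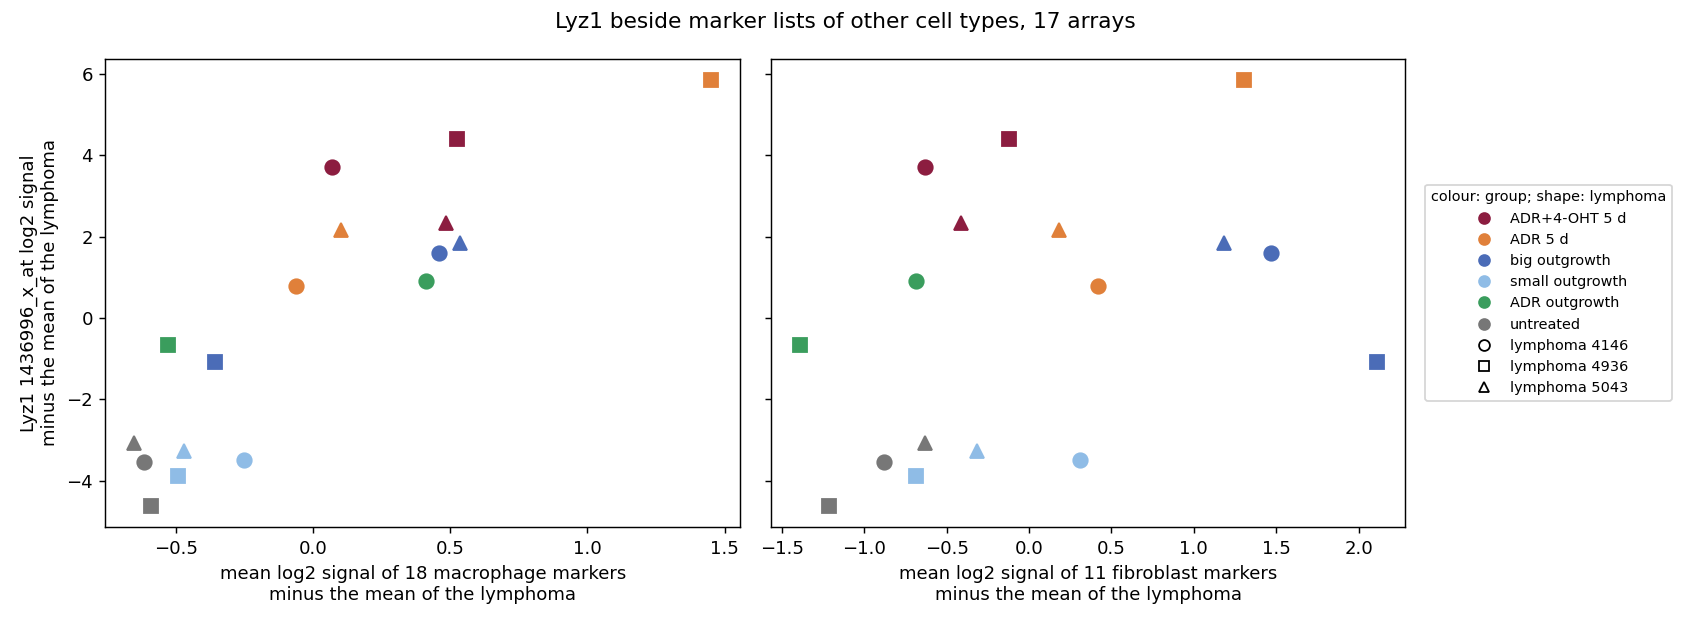
Log2 signal of 1436996_x_at (vertical axis) against the mean log2 level of 18 macrophage markers (left) and 11 fibroblast markers (right), each minus the mean of the lymphoma, with 1 point per array, colour for the group and shape for the lymphoma. The macrophage level runs with lysozyme over the 17 arrays, while the big outgrowth arrays lie to the right for fibroblast markers without the highest lysozyme.

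Fibroblast markers reached their highest levels in big outgrowth cells. Of 11 genes, 7 passed the filter, and 6 of these rose in big outgrowth cells against ADR outgrowth cells by limma's adjusted p, among them Fn1 (fibronectin) by 5.62 (SE 0.73, adjusted p = 0.0222) and Bgn (biglycan, a matrix proteoglycan) by 5.59 (SE 0.74, adjusted p = 0.0222). Against small cells only Fn1 passed, by 3.94 (SE 0.64, adjusted p = 0.0456). Without the 3 arrays that stood apart, 4 of the 6 still passed against ADR outgrowth cells, and Fn1 against small cells had adjusted p = 0.157. The mean level of the list was 6.65 to 7.70 in big, 4.90 to 5.64 in small and 4.20 to 4.65 in ADR outgrowth cells, and its correlation with lysozyme was 0.367 to 0.397 over 17 arrays. Without the 3 arrays that stood apart the correlation was 0.165 to 0.227. ADR 5 d, at 5.64 to 6.89, overlapped big cells in this list, and ADR outgrowth cells, which overlapped big cells in lysozyme, read in it like untreated cells, at 4.38 to 4.83.

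Transcription factors of the myeloid lineage were partly present. Spi1, which encodes PU.1, a factor of both B cells and macrophages, read 7.63 to 9.14 on the 17 arrays, and Cebpb 9.32 to 10.95. Cebpa, the C/EBP factor of granulocyte and monocyte progenitors, lay under 4.86 on all 17. The mean level of the list had r = 0.457 to 0.476 with lysozyme over 17 arrays and 0.399 to 0.422 without the 3 arrays that stood apart. By limma, 2 genes had an unadjusted p under 0.05 in small and 3 in big against ADR outgrowth cells, and 2 in big against small cells. Of 11 genes listed, 9 had a probe set and 8 passed the filter, and only Klf4, a factor of monocytes and of many other cells, passed a test. It read 7.06 in 4146 and 5.54 in 5043, and highest in 4936, in big cells, against 3.92, 3.88 and 3.99 in small cells, a difference of 2.94 (SE 0.43, adjusted p = 0.0435). Against ADR outgrowth cells, at 3.35 and 3.36, the Klf4 difference was 3.75 (SE 0.49, adjusted p = 0.0222), so in ADR outgrowth cells Klf4 lay under 4.86 while lysozyme did not.

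These fibroblast and Klf4 calls depended on the arrays used. No probe set at all passed in big against small cells when any 1 lymphoma was left out. In big against ADR outgrowth cells none passed without 4146 or without 4936, and 2 of all probe sets passed without 5043. Without the 3 arrays that stood apart, Klf4 kept its call in big against small cells, with a difference of 3.63 (SE 0.31, adjusted p = 0.0208), and no probe set passed there when the ADR+4-OHT array of 4146 was left out too.

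Other lysozyme-like genes did not follow Lyz1 and Lyz2. Of 8 listed, 7 had a probe set and only Lalba, which encodes the milk protein alpha-lactalbumin, passed the filter, at 5.23 to 5.63 on all arrays. Lyzl1, Lyzl4 and Lyzl6, lysozyme-like genes of the testis, and the goose-type genes Lyg1 and Lyg2 lay under 4.86 on all 17 arrays.

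The mean level of genes that sense or carry peptidoglycan fragments had r = 0.605 to 0.620 with lysozyme over 17 arrays, and 0.631 to 0.655 without the 3 arrays that stood apart. Of these genes, 6 of 9 passed the filter, and they had 0 calls by limma among the outgrowth groups, with 2 at an unadjusted p under 0.05 for big against small cells and a median of 0.04 there. Among them Tlr2, a receptor for bacterial lipoproteins, read 6.66 to 9.43.

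Markers of the Paneth cells and of the intestine were partly present. Ang4, Reg3g and Reg3a, antimicrobial proteins of the gut, and Cdh1, the epithelial cadherin, lay under 4.86 on all 17 arrays, Vil1, which encodes the brush border protein villin, passed it on 1 and Epcam, an epithelial adhesion protein, on 5. Itln1, a lectin that Paneth cells make, was over it on all 17, at 6.27 to 10.72, and Mmp7, the matrilysin of Paneth cells, on 16, at 4.81 to 8.34. The mean level of the list had r = 0.221 to 0.235 with lysozyme over 17 arrays and 0.074 to 0.100 without the 3 that stood apart. None of the 3 genes of that list that passed the filter was called by limma or had an unadjusted p under 0.05 among the outgrowth groups, and their median was 0.86 for big against small cells, 0.10 for small against ADR outgrowth and 0.96 for big against ADR outgrowth. On the 14 other arrays 2 of the genes passed the filter and the medians were 0.90, -0.49 and 0.41. The part of such cells in the Lyz1 signal was not tested. Dendritic cell genes, 4 of 8 tested, had 0 calls by limma and 1 unadjusted p under 0.05, and the mean level of the list had r = 0.111 to 0.120 with lysozyme.

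Of the B-cell genes, which check the label of the cells, some lay over 4.86 on every array. Cd79b, a chain of the B-cell receptor complex, read 10.25 to 12.09, Cd79a 6.05 to 8.04, and Pax5, the B-lineage factor, 5.36 to 6.44. Ms4a1, the B-cell surface protein CD20, lay over it on 15 arrays, at 3.34 to 12.26, and Vpreb1, a surrogate light chain of early B cells, on 1. Of 10 B-cell genes 8 passed the filter, 0 were called by limma among the outgrowth groups, with unadjusted p under 0.05 for 3 in small and 2 in big against ADR outgrowth cells, and the median was -0.11 for big against small cells, 0.64 for small against ADR outgrowth and 0.68 for big against ADR outgrowth. The mean level of the list was 6.66 to 7.25 in ADR outgrowth cells, against 7.46 to 7.78 in untreated cells. It had r = 0.24 to 0.34 with lysozyme over 17 arrays and -0.14 to -0.03 without the 3 arrays that stood apart. ADR 5 d of 4936, with the highest lysozyme, had Cd79a at 7.69. The gap between the 3′ and 5′ probe sets of Actb, a sign of RNA quality, was 1.17 to 1.51 in ADR+4-OHT 5 d, 0.56 to 1.17 in ADR 5 d, 1.5 to 1.76 in big, 1.41 to 1.81 in small and 1.26 to 1.33 in ADR outgrowth cells, and 1.39 to 1.65 in untreated cells. Big and small cells overlapped in it. ADR 5 d lay wholly under untreated cells, and ADR outgrowth cells lay wholly under big, small and untreated cells. The lowest value, 0.56, was that of ADR 5 d of 4936, the array with the highest lysozyme. The part of RNA quality in the lysozyme differences was not tested.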

How the data were processed

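The series measured total RNA on Affymetrix arrays with 45101 probe sets, 1 array per sample. The deposited values are log2 signals, made by the authors with RMA and Partek per the submitters' processing notes; versions are not given in the sources used here. The medians of a probe set over each lymphoma's arrays are equal (largest gap 1.8e-15), which means that lymphoma offsets are not in the deposited values. Gene names are those of the platform annotation.

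From these values limma 3.58.1 in R 4.3.3 was fitted to every probe set on its own, with 6 groups, lymphoma as an additive block and 17 arrays (9 residual degrees of freedom). Array controls (64) were left out, and 24622 probe sets with at least 4.86 in at least 3 arrays were tested, two-sided, with Benjamini-Hochberg adjustment at 0.05. The median standard error of a difference of 3 against 3 arrays was 0.24, and the number of arrays limits the precision. The members and the gene lists were chosen with earlier results of these data known. Differences that share untreated or 5-day arrays were planned in part as tests and fitted as such, but their p-values are not used for that reason. The tests among outgrowth groups also take their error from those arrays, as the fit shares its spread over all 17. List genes are represented by their probe set with the highest mean (88 of 95 genes). The mean level of a list takes in all of its genes with a probe set, also those under 4.86. The named genes are the members, the 5 probe sets most like each, fixed markers of each list, and list members past the threshold; others named were chosen after their values were seen. The fit was tested on simulated data. Alternatives were no block, other filters and normalizations, array weights, gene level, floored values and left-out arrays or lymphomas.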

Additional observations from a re-analysis of the deposited data

How the results depend on the processing

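Over 36 results and 15 alternatives, 523 values were compared: 507 were kept, 14 moved and 2 newly passed the threshold. With a p-value, kept means the same sign and side of the threshold. For the rest it means a move within the spread, the SD of the differences within lymphomas. That SD rests on 2 or 3 lymphomas and can be wide: 1436996_x_at in ADR 5 d against untreated went from 6.68 to 4.97 without the 3 arrays that stood apart and counts as kept. The 3 probe sets ran together, so these are not separate results. No difference whose p-value is given changed sign. ADR+4-OHT 5 d against ADR 5 d, given without p-values, turned sign without lymphoma 4146, to -0.64, -0.72 and -0.93 (1436996_x_at, 1439426_x_at, Lyz2), a move within the spread, and small outgrowth against untreated, near 0, changed sign under several settings. Big against small outgrowth passed limma's test only with array weights, at 4.33 (adjusted p = 0.0364) for 1436996_x_at and 3.99 (adjusted p = 0.0413) for 1439426_x_at; over all alternatives the adjusted p ran to 0.570 for both, and from 0.118 to 0.755 for Lyz2. ADR outgrowth against untreated was 4.49 (1436996_x_at) and 3.20 (Lyz2) with no replicate block. Leaving out 1 lymphoma gave 3.12 to 4.31 for 1436996_x_at, 2.56 to 3.97 for 1439426_x_at and 1.90 to 2.85 for Lyz2. With values under 4.86 set to it, that comparison gave 3.38, 1.87 and 1.97; 1439426_x_at gave 5.08 for ADR+4-OHT 5 d and 2.49 for big outgrowth against untreated, and small outgrowth against ADR+4-OHT 5 d gave -5.08 (1439426_x_at) and -5.01 (Lyz2). The floor itself sets those values.

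Counts over all probe sets depended strongly on the setting. Big against small outgrowth had 68 calls, against 0 to 1062 over the alternatives: 1062 with array weights, 218 with no replicate block, 1 without the 3 arrays that stood apart, and 0 without any 1 lymphoma or at gene level. Big against ADR outgrowth had 529, against 0 to 1479: 1479 with no replicate block, 914 with median centring, 315 with quantile normalization, 112 at gene level, 69 without those 3 arrays, 1 with array weights, 2 without 5043, and 0 without 4146, without 4936 or with only the arrays of the compared groups. Small against ADR outgrowth had 0 throughout. The causes were not tested. With 2 or 3 arrays a group and standard errors over 1 for the lysozyme probe sets, differences as large as 4.34 log2 units did not pass the test over all probe sets. Those errors share the spread of all groups and are not the spread between outgrowth arrays alone. With only the big and small outgrowth arrays they were 0.48 (1436996_x_at), 0.42 (1439426_x_at) and 0.69 (Lyz2), and the difference still did not pass. Values under 4.86 may be background, which limits every comparison with untreated or small outgrowth cells.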
